A study of Saccharomyces cerevisiae with 6 samples.

Results

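The zinc genes of budding yeast were followed here as 8 genes chosen by their annotated symbols: the zinc transporters ZRT1, ZRT2, ZRT3 and ZRC1, the cell surface protein gene ZPS1, the transcription factor gene ZAP1, and the membrane protein genes IZH1 and IZH2. Each had 1 probe with a value on all 6 arrays, out of 6210 probes and 5560 named genes. Every array compared poly(A) RNA from wild-type Saccharomyces cerevisiae S288c, the reference laboratory strain, with 1 RNA sample in Cy5 and another in Cy3. Rapamycin-treated cells were set against untreated cells on 2 arrays in the medium labelled MDN and on 2 arrays in YPD, a rich medium. A further array set cells grown in MDN against cells grown in SCD, and 1 set MDN against YPD. MDN and SCD are given as abbreviations only, and the labels give neither the dose of rapamycin nor how long it was applied. The series asks which genes respond to inhibition of the TOR kinase, the target of rapamycin, during growth in MDN.

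The values are log2 ratios, read as rapamycin over untreated or as MDN over the other medium, since Cy5 was the dye of the rapamycin or MDN sample. No source states the direction of the ratio: it is likely, and the opposite one would reverse every sign below. No dyes were swapped, so a bias of a probe towards a dye remains in each ratio and drops out only when arrays are subtracted. Nothing in the labels ties arrays to separate cultures, and the p-values therefore describe the spread among arrays, which can be technical. Arrays held values for 5834 to 6121 probes, with medians from -0.09 to 0.07. Arrays repeated within a medium correlated across probes at r = 0.966 for rapamycin in MDN and at r = 0.950 in YPD.

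In budding yeast, zinc supply is sensed inside the cell by Zap1, a transcriptional activator that is active when zinc is scarce and that activates its own gene. Its best known targets act in zinc uptake at the plasma membrane, through the high-affinity transporter Zrt1 and the low-affinity transporter Zrt2, and in the release of stored zinc from the vacuole, through Zrt3. Zrc1 works in the other direction and loads zinc into the vacuole. ZPS1 encodes a protein related to the zinc-scavenging protein Pra1 of Candida albicans, and the Izh proteins are membrane proteins of the adiponectin receptor family with a role in zinc homeostasis.

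The array that set MDN against SCD held the lowest values of the zinc genes. ZRT1, ZPS1, ZRT3 and ZAP1 were all at least 2-fold lower in MDN than in SCD, while ZRT2, ZRC1, IZH1 and IZH2 lay within 0.08 of 0 on the log2 scale. Thus 4 of the 8 genes were at least 2-fold lower, against 0.983% of the 5901 genes and unnamed probes measured there. None of the 8 was at least 2-fold higher, against 2.39% of all. With 1 array there is no replicate and no test, and these values describe that pair of RNA samples.

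ZRT1, the high-affinity uptake transporter, had a log2 ratio of -6.64 in MDN over SCD, a ratio of 0.01. It was the lowest value of all 5901 on the array and the only probe of that array at 0.01, the smallest ratio that the deposited values can take. If the ratio was rounded to the nearest 0.01, the difference was at least 66.7-fold, and its size beyond that is not known. Its partner in uptake, the low-affinity transporter ZRT2, stood at -0.01, a ratio of 0.99.

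ZPS1 stood at -4.06 in MDN over SCD, a ratio of 0.06, or between 15.4- and 18.2-fold lower allowing for the rounding of the ratio. It ranked as the fifth lowest value. ZRT3, which exports zinc from the vacuole, was at -1.64 (3.13-fold lower, rank 25 from the lowest), and ZAP1, the activator gene, was at -1.51 (2.86-fold lower, rank 27). The vacuolar importer ZRC1 was at -0.07, and IZH1 and IZH2 were each at -0.01. The zinc genes therefore separated into 4 that were lower in MDN and 4 that were near equal in both media, with no value between -1.51 and -0.07.

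**Figure D1:**
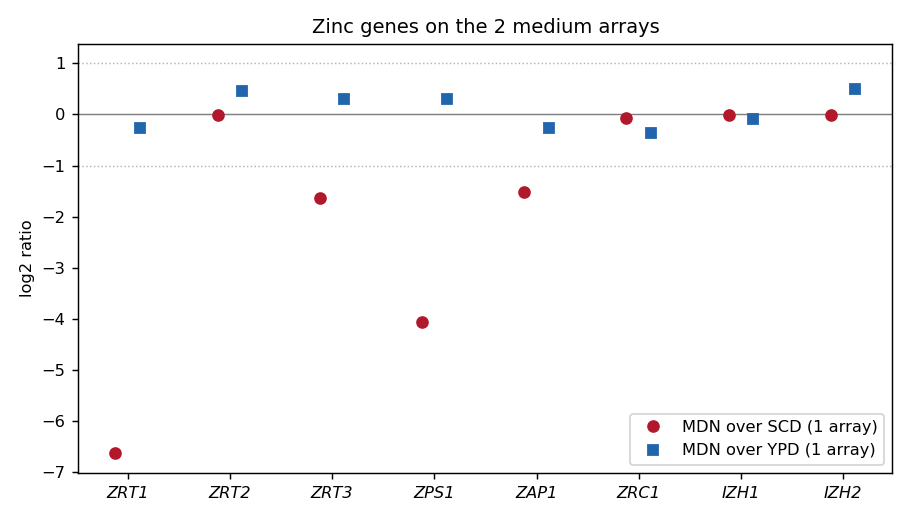
Log2 ratios of the 8 zinc genes on the array of MDN over SCD (circles) and on the array of MDN over YPD (squares), 1 array each and no replicate, with dotted lines at 2-fold. ZRT1, ZPS1, ZRT3 and ZAP1 lie below the lower line for MDN over SCD, and all 8 genes lie between the lines for MDN over YPD.

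The probes of the genes next to these 4 on their chromosomes were also read, a choice made after seeing values. The order of genes was taken from the RefSeq table of assembly R64. Of the 8 nearest measured genes on either side, none was at least 2-fold lower in MDN than in SCD, against 0.983% of all. With so small a share, that count says little about position. Their log2 ratios ran between -0.84 and 1.05. The neighbours of ZRT1 on chromosome VII, ADH4 and FZF1, were at -0.84 and 0.59. ADH4, an alcohol dehydrogenase gene, is itself a known Zap1 target and was the lowest of the neighbours. HPF1, a cell wall mannoprotein gene beside ZPS1 on chromosome XV, stood at 1.05.

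Between MDN and YPD the same genes differed little. The 8 log2 ratios of MDN over YPD ran from -0.36 for ZRC1 to 0.50 for IZH2, so 0 of 8 reached 2-fold and 0 of 8 reached 1.5-fold, against 5.89% and 19.3% of all 6056 genes and unnamed probes. ZRT1 was at -0.27, ZAP1 at -0.27, ZRT3 at 0.30 and ZPS1 at 0.30. None of the 4 genes that were lower in MDN than in SCD was therefore far from equal in MDN and YPD. Of the 58 genes and probes at least 2-fold lower in MDN than in SCD, all with a value on both arrays, 25 were also at least 2-fold lower in MDN than in YPD, 31 were within 2-fold there and 2 were at least 2-fold higher.

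The difference of the 2 medium arrays gives SCD over YPD through MDN, if the MDN samples were alike. On that scale ZRT1 was at 5.78 or more, a bound because its ratio in MDN over SCD was the smallest the values can take, and ZPS1 was at 4.36. These were the highest and the second highest of 5812 values, with ZRT3 at 1.94 and ZAP1 at 1.25. This derived value rests on the same arrays and is no separate evidence.

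**Figure D2:**
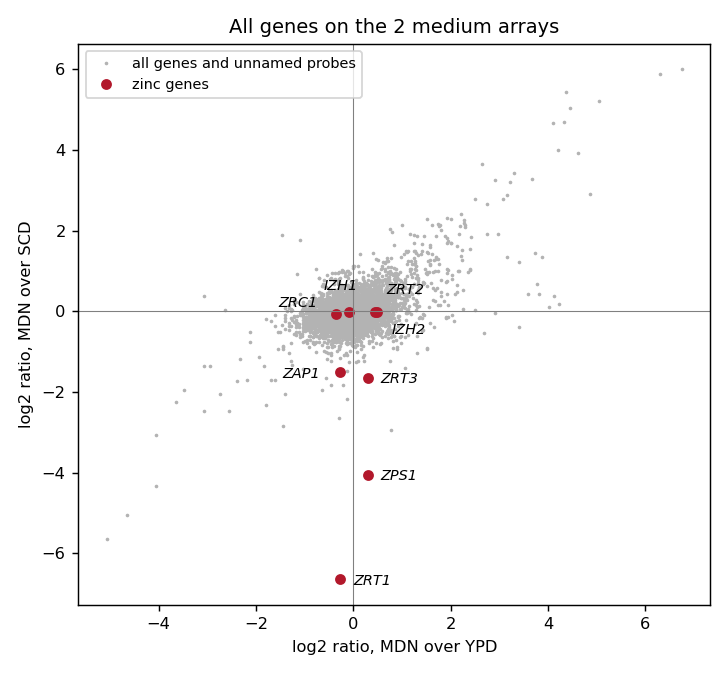
Log2 ratio of MDN over SCD (vertical axis) against MDN over YPD (horizontal axis) for all genes and unnamed probes with both values (grey points) and the 8 zinc genes (red, labelled), 1 array per axis. ZRT1 at -6.64 and ZPS1 at -4.06 lie far below the other genes that are near 0 on the horizontal axis.

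With rapamycin in MDN, the uptake transporter gene ZRT2 and the vacuolar importer gene ZRC1 fell, and the vacuolar exporter gene ZRT3 rose slightly. By limma with Benjamini-Hochberg adjustment over 5488 genes and unnamed probes, 3 of the 8 zinc genes changed, 1 up and 2 down, against 54.1% of all tested (30.8% up and 23.3% down). A share of 3 in 8 is not above that background. The median of the 8 was -0.03, beside 0.06 for all tested. The ± values here are limma standard errors, for n = 2 arrays in each medium.

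ZRT2 had log2 ratios of -1.40 and -1.60 on the arrays of rapamycin in MDN, a mean of -1.50 ± 0.09 (2.82-fold lower, adjusted p = 0.000287). Both arrays placed it low, among the lowest 6.18% and 5.12% of values. ZRC1 had log2 ratios of -0.94 and -1.03 in MDN and fell by 0.99 ± 0.08 (1.98-fold lower, adjusted p = 0.0007). ZRT3 was at 0.32 and 0.38, a rise of 0.35 ± 0.08 (1.27-fold, adjusted p = 0.0185). With a single MDN array the ZRT3 call was lost (adjusted p = 0.132 without MDN array 1 and 0.157 without MDN array 2), whereas ZRT2 and ZRC1 stayed under 0.05.

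The other zinc genes did not pass in MDN. ZRT1 had log2 ratios of -0.09 and -0.04 with rapamycin in MDN, a mean of -0.07 with a 95% interval from -0.26 to 0.13. ZAP1 was at -0.04 and 0.07 (mean 0.01, interval -0.20 to 0.23), with its arrays on either side of 0. IZH1 was at -0.27 and -0.07 (interval -0.40 to 0.06) and IZH2 at 0.10 on both arrays (interval -0.15 to 0.35). These intervals leave room for changes of up to about the size measured for ZRT3.

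ZPS1 could not be measured precisely with rapamycin. Its log2 ratios were -0.51 and 0.60 in MDN and 0.88 and -0.09 in YPD, so the repeated arrays disagreed in sign in both media. Gaps as large as its 1.12 between the MDN arrays were seen in 0.322% of all genes and probes, and gaps as large as its 0.97 between the YPD arrays in 2.00%. Its 95% intervals ran from -0.83 to 0.92 in MDN and from -0.48 to 1.27 in YPD, wide enough to hold a change of over 1.5-fold in either direction in MDN.

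With rapamycin in YPD, ZRT3, ZRT1 and ZAP1 rose and ZRC1, IZH1 and ZRT2 fell. The calls numbered 6 of 8, 3 up and 3 down, against 66.3% of all tested (34.3% up and 32.0% down), so the share was again close to the background. The median of the 8 was 0.21, beside 0.01 for all tested.

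ZRT3 had log2 ratios of 1.07 and 0.95 with rapamycin in YPD, a rise of 1.01 ± 0.08 (2.01-fold, adjusted p = 0.000412). ZRT1 was at 0.57 and 0.60 and rose by 0.58 ± 0.08 (adjusted p = 0.00207). ZAP1 was at 0.26 and 0.36 and rose by 0.31 ± 0.08 (1.24-fold, adjusted p = 0.0234). All 6 values of these 3 genes were above 0.

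ZRC1 had log2 ratios of -1.0 and -1.06 with rapamycin in YPD and fell by 1.03 ± 0.08 (2.04-fold lower, adjusted p = 0.000355). ZRT2 was at -0.54 and -0.60 and fell by 0.57 ± 0.09 (adjusted p = 0.00388). IZH1 was at -0.54 and -0.64 and fell by 0.59 ± 0.09 (adjusted p = 0.00356). IZH2, of the same protein family, did not pass, with -0.03 and 0.24 and an interval from -0.14 to 0.35. With a single YPD array the calls numbered 3: those of ZRT2, IZH1 and ZAP1 were lost without YPD array 1 (adjusted p = 0.0588, 0.0510 and 0.0724) and without YPD array 2 (0.0655, 0.0630 and 0.108). ZAP1 was also lost with either MDN array left out (adjusted p = 0.0601 for each) and when the YPD arrays were fitted alone (0.0635).

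**Figure D3:**
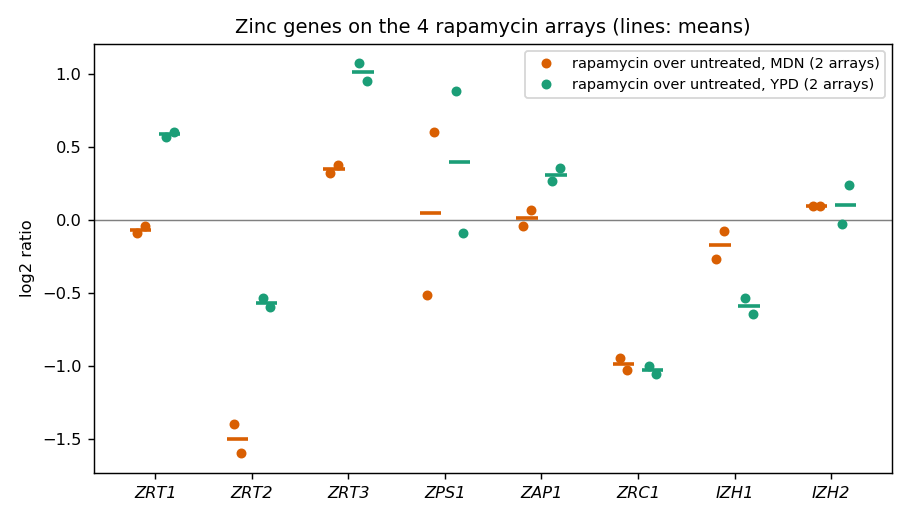
Log2 ratios of rapamycin over untreated cells for the 8 zinc genes in MDN (orange) and in YPD (green), with a point for each of 2 arrays per medium and a line at their mean. ZRC1 lies near -1 on all 4 arrays, ZRT2 is lowest in MDN, ZRT3 is highest in YPD, and the ZPS1 points of each medium lie on either side of 0.

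The response to rapamycin differed between MDN and YPD for the 3 ZRT genes, each lower in MDN. The difference MDN minus YPD passed for 3 of 8 genes, all negative, against 29.5% of all tested (14.6% negative). A total of 3 in 8 lies close to that 29.5%. ZRT2 differed by -0.93 ± 0.13 (adjusted p = 0.0096), from a mean of -1.50 in MDN and -0.57 in YPD. ZRT3 differed by -0.66 ± 0.12 (adjusted p = 0.0176), with 0.35 in MDN and 1.01 in YPD. ZRT1 differed by -0.65 ± 0.11 (adjusted p = 0.0157), with -0.07 in MDN and 0.58 in YPD.

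Thus the fall of ZRT2 was deeper in MDN, and the rises of ZRT1 and ZRT3 seen in YPD were smaller in MDN or did not pass there. In 5 of the 8 genes the 2 MDN arrays did not overlap the 2 YPD arrays, against 69.1% of all tested. With any 1 of the 4 arrays left out, none of these differences passed (adjusted p between 0.0710 and 0.149), and no gene or probe of the 5488 did by limma. Between 1495 and 2159 of all tested then had an unadjusted p under 0.05, among them 3 or 4 of the zinc genes. The differences of the 3 ZRT genes stayed between -1.03 and -0.60 in these fits.

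For the other genes the difference did not pass. ZRC1 differed by 0.04 between its falls in MDN and YPD, with a 95% interval from -0.25 to 0.33, and the sign of this difference turned at equal array scale (-0.21) and under median centring (-0.01). IZH1 differed by 0.42 (interval 0.09 to 0.75, adjusted p = 0.0662) and ZAP1 by -0.30 (interval -0.60 to 0.00, adjusted p = 0.116). IZH2 differed by -0.01 (interval -0.36 to 0.34) and ZPS1 by -0.35 with an interval from -1.58 to 0.88.

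**Figure D4:**
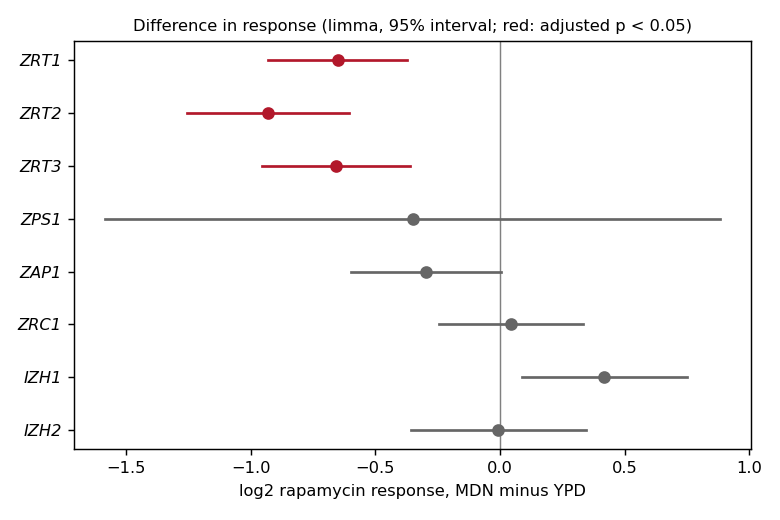
Difference of the log2 rapamycin response, MDN minus YPD, for the 8 zinc genes, with the 95% interval of the limma fit on 4 arrays. Red marks ZRT1, ZRT2 and ZRT3, whose difference had an adjusted p under 0.05, at -0.65, -0.93 and -0.66.

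Further zinc genes were read from 4 lists of 24 genes in all, of which 23 had a probe and 20 had a value on all 4 rapamycin arrays. In MDN 6 of the 20 rose and 4 fell with rapamycin, and in YPD 10 rose and 3 fell. The totals, 10 of 20 and 13 of 20, lie close to the 54.1% and 66.3% of all genes and probes tested. The difference MDN minus YPD passed for 8 of the 20, 1 positive and 7 negative, against 29.5% of all tested (14.6% negative), and for none with any 1 array left out. With a single MDN array 1 rose and 1 fell in MDN, and without YPD array 1 the calls in YPD were 7 up and 1 down.

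Among other zinc transporters, YKE4, a transporter of the endoplasmic reticulum, showed opposite signs in the 2 media. Its log2 ratios with rapamycin were -0.36 and -0.34 in MDN and 1.51 and 1.54 in YPD. It fell by 0.35 ± 0.08 in MDN (adjusted p = 0.0152) and rose by 1.52 ± 0.08 in YPD (adjusted p = 0.000104), and the difference was -1.87 ± 0.11 (adjusted p = 0.00139, and between 0.0702 and 0.122 with 1 array left out). The vacuolar zinc and cobalt transporter gene COT1 did the same on a smaller scale. COT1 fell by 0.45 ± 0.09 in MDN (adjusted p = 0.0102) and rose by 0.42 ± 0.09 in YPD (adjusted p = 0.01), unlike ZRC1, the other vacuolar importer gene, which fell in both. The MDN calls of YKE4 and COT1 were lost without MDN array 1 (adjusted p = 0.131 and 0.0799) or MDN array 2 (0.117 and 0.120). The COT1 call in YPD was lost without YPD array 1 (0.0919) or YPD array 2 (0.0735), whereas that of YKE4 held. MSC2, a subunit of another zinc transporter of the endoplasmic reticulum, rose in YPD by 0.32 ± 0.08 (adjusted p = 0.0185), a call lost with a single YPD array (0.0783 and 0.0835) and with the YPD arrays fitted alone (0.0525). Its partner ZRG17 passed in neither medium. FET4, a low-affinity iron and zinc transporter gene of the plasma membrane, lacked a value on 1 rapamycin array and was not tested. In the IZH family, IZH3 rose by 0.31 ± 0.09 in MDN (adjusted p = 0.0336) and by 0.79 ± 0.09 in YPD (adjusted p = 0.00109), and its MDN call was lost with any 1 array left out (adjusted p up to 0.228), under median centring (0.0598), under the replicate block (0.062) and with the MDN arrays fitted alone (0.0806).

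Of 13 other known Zap1 targets tested, 4 rose and 1 fell in MDN, and 5 rose and 2 fell in YPD. These counts are not above the 54.1% and 66.3% called among all tested. URA10, an orotate phosphoribosyltransferase gene of pyrimidine synthesis, rose by 2.13 ± 0.16 in MDN and by 2.85 ± 0.16 in YPD (adjusted p = 0.000535 and 0.000127). CKI1, the choline kinase gene, rose by 0.89 ± 0.08 and 1.32 ± 0.08, and DPP1, a vacuolar lipid phosphatase gene, by 0.48 ± 0.08 and 1.16 ± 0.08, in the same order. ADH4 fell by 0.53 ± 0.10 in MDN and by 0.61 ± 0.10 in YPD. With a single MDN array the MDN calls of URA10, DPP1 and ADH4 were lost (adjusted p between 0.0528 and 0.114), and the ADH4 call in YPD was lost with a single YPD array (0.0949 and 0.0870). The ADH4 call in MDN was also lost without either YPD array (0.0655 for each) and with the MDN arrays fitted alone (0.0662). NRG2, a transcriptional repressor gene, rose by 0.62 ± 0.11 in MDN and by 0.34 ± 0.11 in YPD (adjusted p = 0.0069 and 0.0386), and both calls depended on the arrays kept, with adjusted p up to 0.129 and 0.155. TSA1, a peroxiredoxin gene, had log2 ratios of 0.11 and -0.12 in MDN and of 1.05 and 1.11 in YPD, where it rose by 1.08 ± 0.09 (adjusted p = 0.000499). The TSA1 difference was -1.08 (adjusted p = 0.00761, and up to 0.131 with 1 array left out). RAD27, a flap endonuclease gene, had the only positive difference that passed among the further genes, 0.57 ± 0.15 (adjusted p = 0.0451). The call was lost in 7 alternatives, among them equal array scale (adjusted p = 0.057) and the replicate block (0.077).

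The other targets were also read in MDN over SCD. Of 12 with a value none was at least 2-fold lower, against 0.983% of all, and their median was -0.23, beside -0.09 for all genes. The lowest were ADH4 at -0.84, VEL1 and YOR387C at -0.51 each, and CKI1 at -0.47. Among transporters, FET4 was at -0.60 and COT1 at 0.62. In MDN over YPD, FET4 at -1.06 was the only one of 22 further genes with a value to reach 2-fold, against 5.89% of all. ADH1 and ADH3 are genes of zinc-binding alcohol dehydrogenases that are lowered by Zap1 when zinc is scarce. In MDN over SCD they stood at 1.2 and 0.99, the opposite side of 0 from ZRT1. On that array 2.39% of all genes and unnamed probes were at least 2-fold higher, and zinc as a cause was not tested. In MDN over YPD ADH1 was at 0.64 and ADH3 at 0.20. With rapamycin ADH1 fell by 1.58 ± 0.11 in MDN and by 1.27 ± 0.11 in YPD (adjusted p = 0.000392 and 0.00044), while ADH3 rose by 0.37 ± 0.11 and by 1.03 ± 0.11 in the same order (0.0413 and 0.00105). The ADH3 call in MDN was lost in 4 alternatives, with adjusted p up to 0.272.

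**Figure D5:**
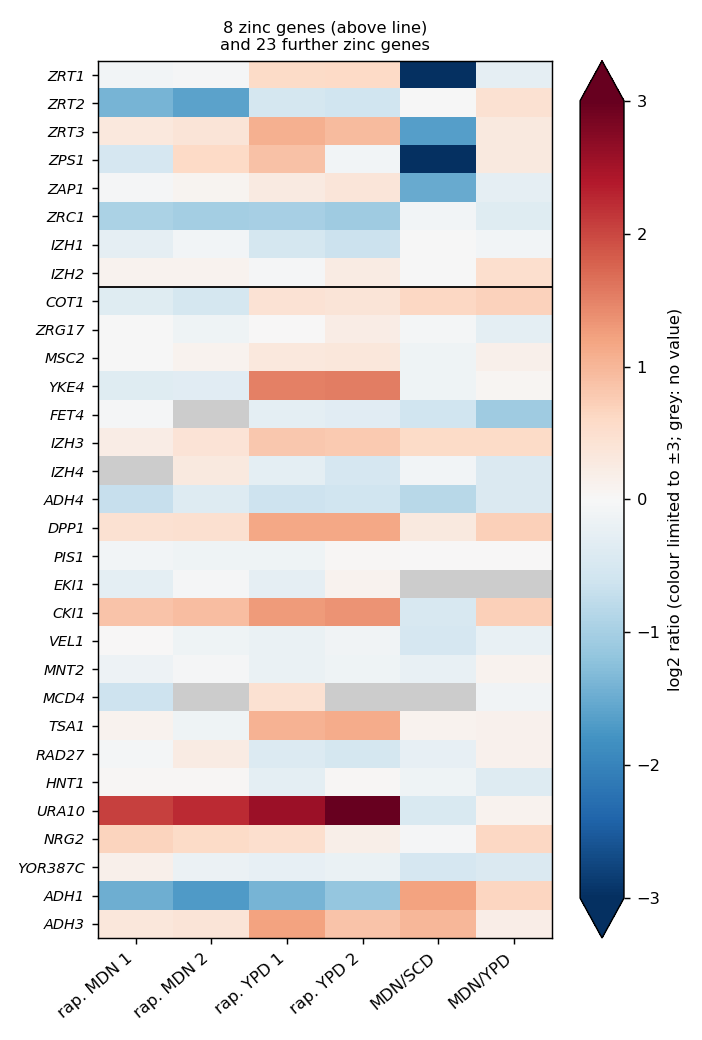
Log2 ratios of the 8 zinc genes (above the line) and 23 further zinc genes (below) on the 4 rapamycin arrays, the MDN over SCD array and the MDN over YPD array, with colours limited to 3 in either direction and grey where there is no value. The darkest blue cells are ZRT1 and ZPS1 for MDN over SCD, and URA10 is red on the 4 rapamycin arrays.

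The genes closest in pattern were found by the root mean square difference of log2 ratio over the 6 arrays, among 4876 named genes with all values. This is a description over 6 arrays that share strain and platform. The gene closest to ZRT1 was ZPS1, at 1.17, followed by YGP1 at 1.87. Distances to ZRT1 take its log2 ratio of -6.64 in MDN over SCD as it stands, and their size is as uncertain as that value. Both distances come largely from that single array, where ZPS1 was at -4.06 and YGP1 at -2.64. They are no evidence apart from it. For ZPS1 the closest were YJL218W at 1.02 and ZRT3 at 1.13, and for ZAP1 they were YJL218W and RTC4, each at 0.21. YJL218W and RTC4 were at -1.84 and -1.25 in MDN over SCD. For ZRT3 the closest were TEX1 and COA4 at 0.41 and 0.43.

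ZRT2 was closest to LTE1 and TEF1 at 0.21 and 0.26. ZRC1 was closest to PCH2 and SES1, at 0.07 and 0.08, IZH1 to MIX17 and TAF5, at 0.05 and 0.08, and IZH2 to MBP1 and COX8, both at 0.09. The distance between the 2 IZH genes was 0.51, and that between ZRT2 and ZRT1 was 2.92.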

How the data were processed

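The authors deposited 1 table of log2 ratios, with 6210 probes and 6 arrays; the scale was found from the values, since 2 raised to each value gave a whole multiple of 0.01 (tolerance 0.0001). Scanner, background correction, normalization and spot filters were not given in the sources used here, and the ratio's direction was taken from the dyes per the labels. Probes were named from the platform annotation: 5595 had 1 symbol, none had several and 615 were unnamed; all 5595 symbols matched RefSeq's table of assembly R64. Probes of 1 gene were averaged. No coordinates are printed, since no source names the build behind the probes.

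The 4 rapamycin arrays were fitted by the lmFit and eBayes functions of limma 3.58.1 under R 4.3.3, with a mean per medium and no block, over 5488 genes and unnamed probes with values on all 4, with 2 residual degrees of freedom and 3.00 from the prior. Tests were two-sided, and adjusted p under 0.05 (Benjamini-Hochberg over all 5488) was called. Precision is limited by the small number of arrays. With 1 array each, the media were not tested, and genes at 2-fold or more were counted. The fit was also run on simulated data with independent noise of the fitted size. That run cannot show the effect of shared cultures or dye bias. Figures used matplotlib 3.10.9. The genes, lists and tests were chosen with earlier results of these data known. Named were all 8 zinc genes, up to 4 genes a list and comparison with the largest values, and 2 nearest genes each by pattern; chromosomal neighbours, ZRG17 and genes set beside a named one were added after seeing values. Alternatives were array centring and scale, missing values, separate probes, a replicate block, a robust prior, each medium alone, a floor on ratios at 0.05, and each array left out. Same-numbered arrays of the 2 media deviated from their means with a correlation of -0.10 over genes. With 2 arrays per medium this cannot show whether the numbers pair the arrays, and the labels do not say.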

Additional observations from a re-analysis of the deposited data

Results flagged for a closer look

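Of the 8 zinc genes, 3 responded to rapamycin differently in MDN and in YPD by limma's test of the difference itself. That share lies close to the 29.5% of all tested. The calls were lost when any single array was left out. The difference MDN minus YPD was -0.65 for ZRT1, -0.93 for ZRT2 and -0.66 for ZRT3 on the log2 scale, with adjusted p of 0.0157, 0.0096 and 0.0176. For each of these genes both MDN arrays lay below both YPD arrays, and the arrays of the 2 media did not overlap for 69.1% of all tested. Over their alternatives the adjusted p ran from 0.0112 to 0.142 for ZRT1, from 0.00513 to 0.139 for ZRT2 and from 0.0117 to 0.149 for ZRT3. No group had enough arrays to look for a single array that stands apart.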

How the results depend on the processing

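With both arrays of each medium in the fit, the counts of zinc genes called in MDN (3), in YPD (6) and for the difference (3) were the same under median centring, equal array scale, genes with at least 1 array per medium, separate probes, the replicate block, a robust prior and a floor on ratios at 0.05; fitting each medium alone gave 3 in MDN and 5 in YPD. Separate probes, the rule of at least 1 array per medium and the floor left the estimates of the 8 genes as they were. Each gene had 1 probe, a value on every array and no rapamycin ratio under 0.05. For these genes such settings could move only the variance prior and the adjustment over all tested. The replicate block changed no call of the 8 zinc genes, with 3, 6 and 3 called, while over all genes the block gave 2709, 3417 and 1185 calls, against 2968, 3638 and 1620 without it. The crossed pairing, a limma block of differently numbered arrays chosen after seeing the data, gave 3, 7 and 3. The added YPD call was ZPS1 (0.40, adjusted p = 0.020), so its status there depended on how arrays were paired. Leaving out 1 array gave 2 to 3 calls in MDN, 3 to 5 in YPD and 0 to 0 for the difference; an array left alone in its medium was assumed to vary like those of the other. The sign of genes that had not passed turned in some fits. Under median centring these were ZPS1 (-0.012) and ZAP1 (-0.043) in MDN and ZRC1 (-0.0062) for the difference. At equal scale they were ZRC1 (-0.21) and IZH2 (0.017) for the difference. With 1 array left out, ZPS1 ran from -0.51 to 0.60 in MDN, from -0.089 to 0.88 in YPD and from -0.91 to 0.21 for the difference. ZAP1 ran from -0.044 to 0.070 in MDN, and IZH2 from -0.029 to 0.24 in YPD and from -0.14 to 0.13 for the difference. The cause was not tested. No gene that had passed turned its sign. The medium counts of 4 (MDN over SCD) and 0 (MDN over YPD) were the same at 1.5-fold and under centring. Separate probes could not change them, since each of the 8 genes had 1 probe. Among the further zinc genes, 8 differed between media, and 5 did under the replicate block and 5 at equal scale, 4 of them among the 8 in each case, and 0 with any 1 array left out. A planned search of promoters for Zap1 sites was not run, because no sequence was used here. Ratios are known in steps of 0.01, which limits the size given for ZRT1.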
